A study of Rattus norvegicus with 48 samples.

Results

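The transcription factors that set and keep hepatocyte identity were followed in rat liver after ischemia and reperfusion. The 9 factors were Hnf4a, Cebpa, Cebpb, Foxa1, Foxa2, Foxa3, Nr5a2, Onecut1 and Prox1, out of 14506 genes measured with exactly 1 gene symbol on the array. They were chosen by name, and each of the 9 had 1 probe set with a symbol of its own, so no choice among probe sets was needed. The platform's probe sets were 10842018 for Hnf4a, 10706131 for Cebpa, 10842469 for Cebpb, 10890102 for Foxa1, 10850521 for Foxa2, 10719383 for Foxa3, 10768116 for Nr5a2, 10911570 for Onecut1 and 10770680 for Prox1.

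All 48 animals were male Wistar rats, anaesthetized and opened by laparotomy, and each gave 1 biopsy of the right liver lobe for 1 array. The 8 sham rats had the laparotomy only. The other 4 groups, of 10 rats each, had the whole liver made ischemic for 30 min and reperfused for 30 min. IRI had nothing more, IPC (preconditioning) had a first ischemia of 10 min and 10 min of reperfusion beforehand, IPO (postconditioning) had flow restored and stopped again for 30 sec each, in 3 cycles, straight after the long ischemia, and IPC+IPO had both. The values are log2 expression per probe set, made with RMA by the authors. A biopsy holds all cells of the lobe, so fewer hepatocytes and less RNA per hepatocyte cannot be told apart.

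Hepatocyte identity rests on a small network of factors that bind each other's promoters and keep the liver's secretory and metabolic genes on. HNF4A, a nuclear receptor, is its hub. FOXA proteins open chromatin in the embryonic foregut, ONECUT1 and PROX1 act in liver outgrowth and in the split between hepatocytes and bile duct cells, the C/EBP factors tie the network to fasting and to the acute-phase response, and NR5A2 drives bile acid and cholesterol genes.

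RefSeq promoter windows (build GRCr8) were matched by symbol for 6 of the 9 factors, Hnf4a with 2 starts that lie 35616 bases apart. The 250 bases before the start are printed here 5′ to 3′ on the gene's strand for Hnf4a and Nr5a2, whose levels moved together from rat to rat, and for Cebpa and Cebpb, the members with the smallest p in the test over all 5 groups. Capitals mark each match to one of the motifs searched, on either strand. The upstream Hnf4a window is chr3:172605970-172606219 (+), the downstream one chr3:172641586-172641835 (+), Nr5a2's is chr13:50984939-50985188 (-), Cebpa's chr1:96896334-96896583 (+) and Cebpb's chr3:176816755-176817004 (+). The annotated Nr5a2 gene reaches to base 50985107, so part of its window lies within the gene, before an internal start. The downstream Hnf4a window and that of Foxa3, not printed, lie wholly within their genes.
Hnf4a, upstream start: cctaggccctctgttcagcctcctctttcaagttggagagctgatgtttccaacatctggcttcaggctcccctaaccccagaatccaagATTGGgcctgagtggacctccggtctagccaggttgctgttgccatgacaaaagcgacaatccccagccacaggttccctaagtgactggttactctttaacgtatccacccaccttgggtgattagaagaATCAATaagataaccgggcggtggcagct
Hnf4a, downstream start: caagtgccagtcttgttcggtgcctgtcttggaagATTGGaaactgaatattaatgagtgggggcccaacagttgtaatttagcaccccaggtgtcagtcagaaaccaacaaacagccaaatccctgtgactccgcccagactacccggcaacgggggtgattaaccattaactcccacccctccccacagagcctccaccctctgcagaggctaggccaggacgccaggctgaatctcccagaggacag
Nr5a2: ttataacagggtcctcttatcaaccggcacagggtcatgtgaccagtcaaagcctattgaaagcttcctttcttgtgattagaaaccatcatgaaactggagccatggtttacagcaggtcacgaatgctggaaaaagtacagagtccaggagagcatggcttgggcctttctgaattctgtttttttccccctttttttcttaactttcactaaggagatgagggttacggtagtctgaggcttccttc
Cebpa: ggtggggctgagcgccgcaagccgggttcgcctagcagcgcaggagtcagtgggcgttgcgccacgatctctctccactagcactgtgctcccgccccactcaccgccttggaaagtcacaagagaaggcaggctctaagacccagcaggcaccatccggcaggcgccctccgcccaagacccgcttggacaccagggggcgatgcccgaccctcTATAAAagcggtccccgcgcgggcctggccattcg
Cebpb: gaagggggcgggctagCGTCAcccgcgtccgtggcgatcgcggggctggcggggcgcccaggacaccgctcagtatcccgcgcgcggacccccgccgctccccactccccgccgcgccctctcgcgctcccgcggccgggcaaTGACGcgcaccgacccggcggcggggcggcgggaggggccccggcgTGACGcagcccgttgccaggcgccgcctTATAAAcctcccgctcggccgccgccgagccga

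The core bound by CREB was searched as TGACG. The C/EBP site was searched as TTGCGCAA and TTGCACAA, the HNF4A site as CAAAGTCCA and CAAAGGTCA, and the NR5A2 site as CAAGGTCA and CAAGGCCA. For FOXA the forkhead form TGTTTAC was taken, and the other form in common use was searched as well, written TATTTAC. For the ONECUT family the palindrome ATCGAT was taken, together with the related form that is found in many liver genes, ATTGAT. The TATA box was searched as TATAAA, and the promoter element of the same name as its letters was CCAAT. No motif contains another, although in the Foxa2 window, not printed, TATAAA matched on both strands with shared bases. Cebpb held TGACG at 3 places, beginning 61, 107 and 234 bases before the start, and 18.2% of all 33469 windows of this length held it at least once. TATAAA began 35 bases before the start of Cebpa and 33 before that of Cebpb, and also occurred in the Foxa2 and Foxa3 windows, against 12.9% of all windows. The upstream Hnf4a window had ATTGAT 29 bases before its start (on the strand opposite to the printed one), and the Foxa2 window had it too (7.1% of all windows). CCAAT matched in both Hnf4a windows and in that of Foxa3 (34% of all windows). The C/EBP, FOXA, HNF4A and NR5A2 motifs, found each in 0.14% to 3.21% of all windows, had no match in the 7 windows, and none of the motifs matched in Nr5a2's. GC content ran from 42.8% in Foxa2 to 80.0% in Cebpb, beside a median of 51.2% over all windows. These are matches of letters in a short window, not measured binding.

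The arrays differed in the spread of their values, taken as the SD that the log2 values of its 14506 genes had, and this touched every factor. The mean spread was 1.72 ± 0.13 (SD, n = 8) for sham arrays, 1.77 ± 0.11 for IRI, 1.85 ± 0.08 for IPC, 1.91 ± 0.07 for IPO and 1.86 ± 0.15 for IPC+IPO (n = 10 each). The lowest spreads were 1.498 in IPC+IPO animal 38 and 1.54 in IRI animal 7. Sham animals 43 and 48 reached 1.96 and 1.91, while the other sham arrays lay between 1.61 and 1.70. A fit that holds spread as a covariate was therefore run as well. In that fit 0 of the 9 factors were called in any of the 10 pairwise comparisons or in the interaction. Of all genes 0.0138% were called in IPO against IRI, 0% in IPO against sham and 5.89% in IRI against sham. The labels name no batch or day of hybridization. The 11 measured hepatocyte markers, among them Alb, Ttr and Cps1, averaged a log2 level between 12.03 (IRI) and 12.25 (IPO) in the 5 groups, so the defining markers of the labelled tissue were present in each.

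None of the 9 factors passed the test in any of the 4 main comparisons (limma, Benjamini-Hochberg over all genes). After ischemia and reperfusion alone, 0 of 9 were called against sham, where 0.241% of all genes were called. For IPC against IRI it was 0 of 9 beside 0.0276% of all genes, for IPO against IRI 0 of 9 beside 22.8%, and for IPC+IPO against IRI 0 of 9 beside 0%. At an unadjusted p under 0.05 the counts were 0, 1, 3 and 1 of the 9, where 11.5%, 19.3%, 44.5% and 21.5% of all genes lay under that p. The test for any difference among the 5 groups called 0 of 9 factors and 14.4% of all genes, with Cebpb (p = 0.0291) and Cebpa (p = 0.0468) under 0.05 before adjustment and at 0.103 and 0.134 after it. The 3 intervention comparisons share the IRI animals, so they are not independent of each other.

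All 9 factors had a mean above IRI in each intervention group, by a median of 0.29 log2 for IPC, 0.24 for IPO and 0.15 for both together, where the median over all genes was -0.015, -0.04 and -0.02. Of all genes, 47.1%, 45.9% and 46.2% had a mean above IRI. The shares among genes of like level are not given here. Against sham, 7 of 9 factors were higher in IRI, beside 58.4% of all genes, with a median of 0.10 beside 0.03 over all genes. With array spread in the model the medians were 0.10, 0.02 and 0.02 for the interventions and 0.07 for IRI, with 9, 5, 5 and 6 of the 9 above 0. Under a renewed quantile normalization they were 0.11, -0.02, -0.03 and 0.05, with 9, 4, 4 and 5 above 0. In these 2 settings fewer factors stood above IRI in IPO and in IPC+IPO, while all 9 still did in IPC. Spread itself differed between the groups, so a difference tied to spread and one tied to the intervention cannot be told apart here. Which of them set these values was not tested.

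**Figure D1:**
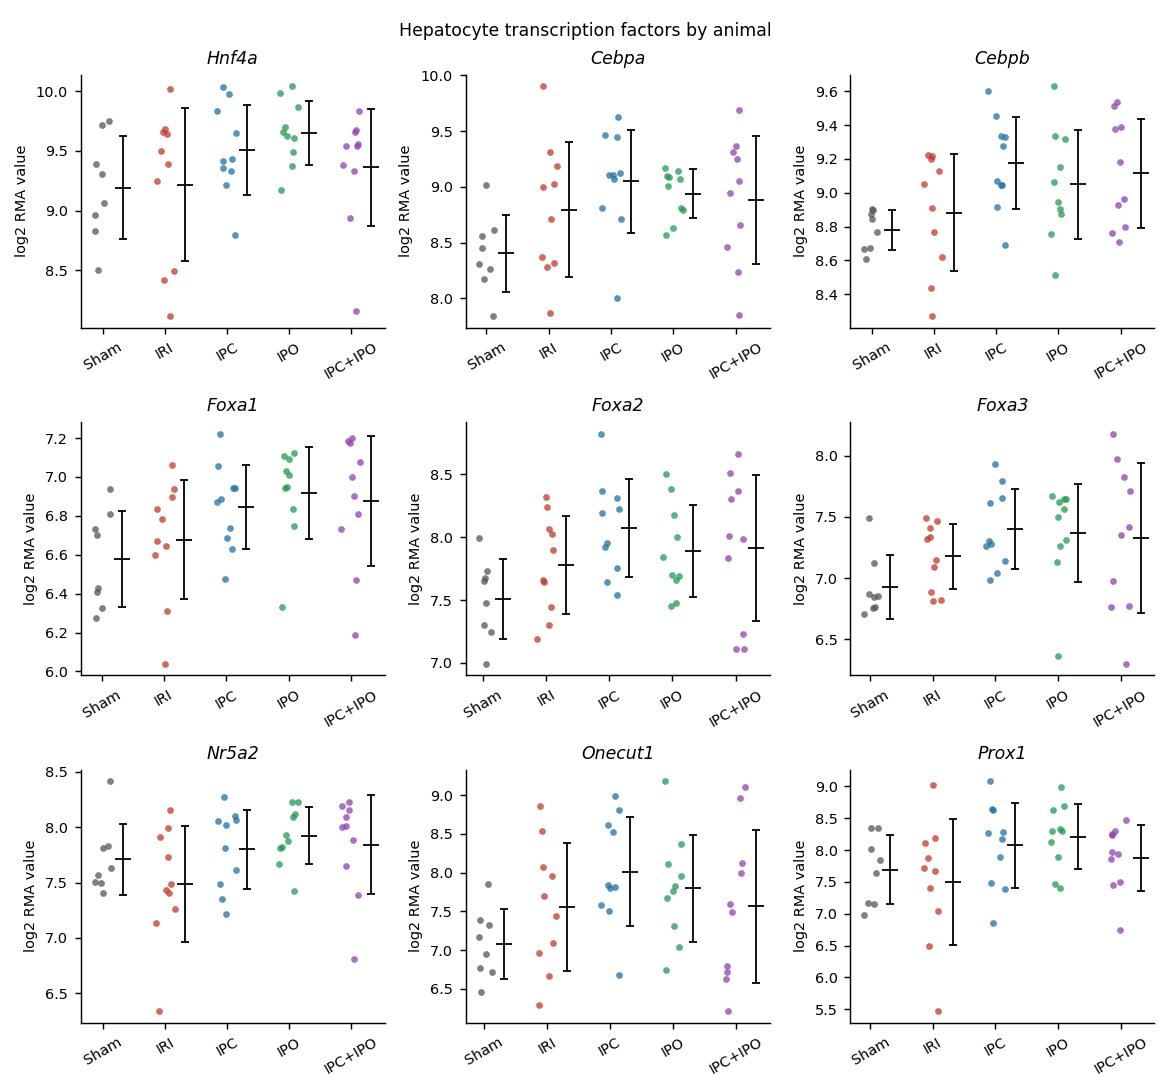
Log2 RMA value of each of the 9 factors (vertical axis) in the 5 groups (horizontal axis), 1 point per rat, with the group mean and SD beside the points; each panel has its own vertical scale. The groups overlap for every factor, and the lowest value of Hnf4a, Cebpb, Foxa1, Nr5a2 and Prox1 belongs to an IRI rat.

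Hnf4a, the nuclear receptor at the hub of the network, had a lowest, median and highest log2 value of 8.503, 9.186 and 9.752 among sham rats, 8.12, 9.44 and 10.02 after IRI, 8.80, 9.42 and 10.03 with IPC, 9.17, 9.64 and 10.04 with IPO and 8.16, 9.54 and 9.83 with both. The IPO values were the most closely spaced and held no low animal, while IRI had 3 animals below every sham rat and 1 above, and all groups overlapped. Its mean in IPO was 0.43 ± 0.20 (SE) above IRI, 1.35-fold, with a limma adjusted p of 0.0865. IRI itself stood 0.03 ± 0.21 from sham, with a 95% interval of the difference from -0.39 to 0.45. The difference of IPO from IRI was 0.04 ± 0.16 with spread in the model.

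Nr5a2, the nuclear receptor also called LRH-1, had a lowest, median and highest value of 7.41, 7.60 and 8.42 among sham rats, 6.34, 7.46 and 8.16 after IRI, 7.22, 7.92 and 8.27 with IPC, 7.43, 7.90 and 8.23 with IPO and 6.81, 8.01 and 8.22 with both. IRI animal 7, whose array had a low spread of 1.54, was the lowest of all 48, and 4 of the 10 IRI rats lay below every sham rat. The IPO mean was 0.44 ± 0.17 above IRI (1.35-fold, limma adjusted p = 0.0549), and the IPC+IPO mean was 0.36 ± 0.17 above it (adjusted p = 0.219). IRI stood at -0.22 ± 0.18 from sham (adjusted p = 0.697). With spread as a covariate that last difference became -0.35 ± 0.11, adjusted p = 0.0517, and IPO against IRI became 0.04 ± 0.11.

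Prox1, a homeobox factor that binds both HNF4A and NR5A2 and holds back their targets, varied most among the IRI rats. Its lowest, median and highest values were 6.98, 7.75 and 8.35 among sham rats, 5.47, 7.70 and 9.03 after IRI, 6.86, 8.22 and 9.08 with IPC, 7.399, 8.3 and 8.995 with IPO and 6.74, 7.96 and 8.47 with both. No IPO rat was above every IRI rat, although the IPO mean was 0.71 ± 0.29 higher (1.64-fold, adjusted p = 0.0598). That was the largest difference of the 9 from IRI, and with spread in the model it was 0.26 ± 0.26. The difference of IPC from IRI was 0.57 ± 0.29 (adjusted p = 0.261).

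Single arrays decided whether these 3 factors were called in IPO against IRI, while their differences stayed above 0. Prox1 was called in 6 of the 48 fits that left out 1 array, at 0.88 without IRI animal 1, 0.78 without IRI animal 2, 0.79 without IRI animal 6, 0.80 without IPO animal 24, 0.80 without IPO animal 25 and 0.71 without IPC+IPO animal 38. Nr5a2 was called in 7, at 0.49 without IRI animal 1, 0.51 without IRI animal 4, 0.48 without IRI animal 6, 0.49 without IPO animal 24, 0.47 without IPO animal 25, and 0.44 without IPC+IPO animal 38 or sham animal 43. Hnf4a was called only without IRI animal 1, at 0.52. Of the other factors, Foxa1 was called in that comparison without IPO animal 30, at 0.30. In IPC+IPO against IRI, Nr5a2 was the only one of the 9 called in any such fit, at 0.47 without IPC+IPO animal 38. The share of all genes called in each of these fits is not given here, so these calls are not shown to be particular to the factors. In IPO against IRI that share was 22.8% with all arrays, 10.5% without the 2 arrays of lowest spread and 27.7% without sham animals 43 and 48.

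Cebpa, the C/EBP factor of the resting hepatocyte and of gluconeogenic gene expression, had a lowest, median and highest value of 7.84, 8.38 and 9.02 among sham rats, 7.87, 8.86 and 9.90 after IRI, 8.01, 9.11 and 9.62 with IPC, 8.57, 9.04 and 9.17 with IPO and 7.855, 8.995 and 9.684 with both. In IPC, 7 of 10 rats lay above every sham rat, and the IPO rats kept to a narrow band. The difference of IPC from sham was 0.65 ± 0.21 (1.57-fold), the smallest p of the 9 in that comparison, with a limma adjusted p of 0.0540, and 0.40 ± 0.20 with spread in the model. IPC, IPO and IPC+IPO differed from IRI by 0.25 ± 0.20, 0.14 ± 0.20 and 0.09 ± 0.20, of which those of IPO and IPC+IPO were below 0 with spread in the model.

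Cebpb, induced in the acute-phase response and in regeneration, was the most even of the 9 among sham rats. Its lowest, median and highest values were 8.61, 8.80 and 8.90 among sham rats, 8.27, 8.98 and 9.22 after IRI, 8.69, 9.17 and 9.60 with IPC, 8.514, 9.005 and 9.631 with IPO and 8.71, 9.07 and 9.54 with both. In IPC, 9 of 10 rats lay above the highest sham rat, whereas the IRI rats spread to both sides of the sham range, 6 above it and 2 below. IPC stood 0.40 ± 0.14 above sham (1.32-fold, limma adjusted p = 0.0685) and 0.29 ± 0.13 above IRI (1.23-fold, adjusted p = 0.220), the one member with an unadjusted p under 0.05 in the latter. With spread held constant these were 0.32 ± 0.14 and 0.24 ± 0.13.

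Foxa1, a pioneer factor that opens liver enhancers, was the 1 member called in any of the 10 pairwise comparisons. Its lowest, median and highest values were 6.28, 6.56 and 6.94 among sham rats, 6.04, 6.73 and 7.06 after IRI, 6.48, 6.88 and 7.22 with IPC, 6.33, 6.98 and 7.12 with IPO and 6.19, 6.95 and 7.20 with both. In IPO, 7 of 10 rats lay above every sham rat, and animal 30 lay far below the other 9. Foxa1 rose in IPO against sham by 0.34 ± 0.13 (SE), 1.27-fold, with a 95% interval from 0.08 to 0.60 and a limma adjusted p of 0.049. In that comparison 1 of 9 factors was called, beside 23.2% of all genes, of which those called higher made up 15.4% of all genes. The call held in 14 of the 48 fits that each left out 1 array, and the differences over the 48 fits ran from 0.30 without sham animal 46 (not called) to 0.41 without IPO animal 30 (called). With spread in the model the difference was 0.05 ± 0.11 (adjusted p = 0.916), and after renewed quantile normalization 0.11 ± 0.12 (adjusted p = 0.571). Centring each array on its median left it at 0.32 with an adjusted p of 0.0581.

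Foxa2, the FOXA factor tied to fasting metabolism and bile acid handling, had a lowest, median and highest value of 6.99, 7.57 and 7.99 among sham rats, 7.19, 7.78 and 8.32 after IRI, 7.54, 8.07 and 8.82 with IPC, 7.45, 7.769 and 8.504 with IPO and 7.11, 8.00 and 8.66 with both. In IPC and in IPC+IPO, 5 of 10 rats exceeded every sham rat. The difference of IPC from sham was 0.56 ± 0.19 (1.48-fold, limma adjusted p = 0.0662), and 0.40 ± 0.19 with spread in the model. Foxa3, a FOXA factor that supports glucose release in fasting, had 6.70, 6.85 and 7.49 among sham rats, 6.81, 7.24 and 7.49 after IRI, 6.99, 7.29 and 7.93 with IPC, 6.36, 7.53 and 7.67 with IPO and 6.30, 7.39 and 8.18 with both. Sham animal 43 set the top of the sham range of Foxa3, and 6 of 10 IPO rats lay above it while animal 30 lay below every sham rat. Foxa3 in IPC and IPO stood 0.47 ± 0.18 and 0.44 ± 0.18 above sham, with limma adjusted p of 0.103 and 0.0666, and 0.21 ± 0.16 and 0.06 ± 0.17 with spread in the model.

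Onecut1, also called HNF6, a factor of liver and bile duct development, had the widest differences from sham. Its lowest, median and highest values were 6.46, 7.06 and 7.86 among sham rats, 6.29, 7.57 and 8.86 after IRI, 6.68, 7.82 and 8.98 with IPC, 6.74, 7.79 and 9.18 with IPO and 6.21, 7.54 and 9.10 with both. Each ischemic group held 4 rats above every sham rat, together with low animals inside the sham range or below it. The mean difference from sham was 0.93 ± 0.34 in IPC (1.91-fold, limma adjusted p = 0.0865), 0.72 ± 0.34 in IPO, 0.49 ± 0.34 in IPC+IPO and 0.48 ± 0.34 in IRI. In the fit with spread the first of these was 0.70 ± 0.35 and the last 0.40 ± 0.34. IPC+IPO differed from IRI by 0.01 ± 0.32, with an interval from -0.65 to 0.66.

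**Figure D2:**
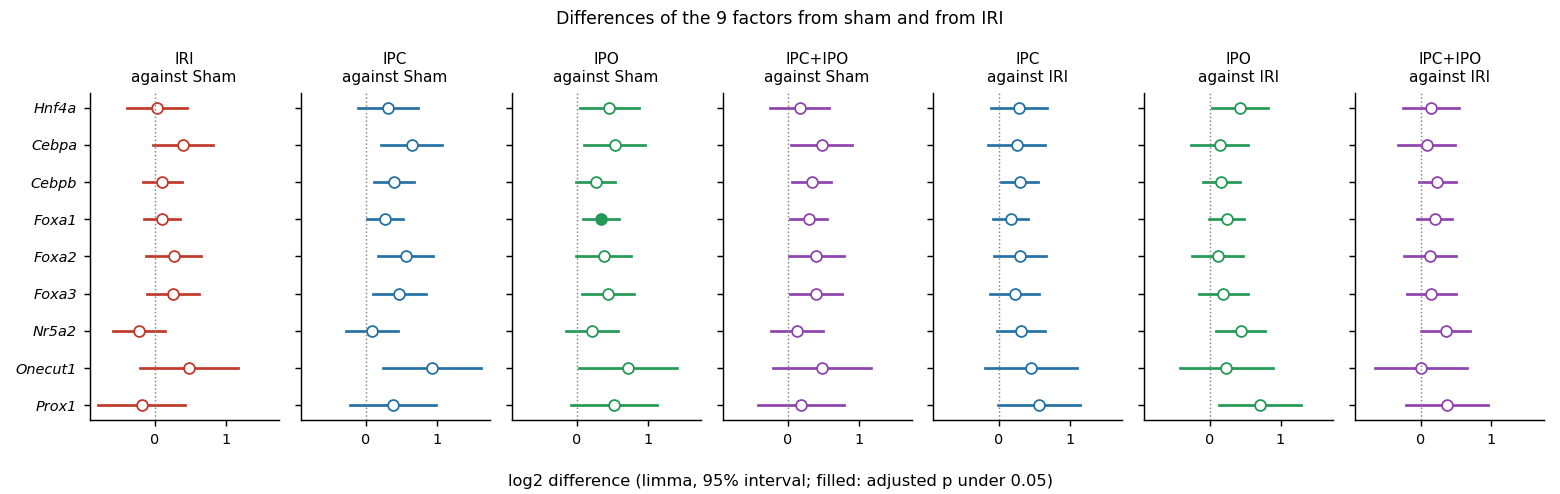
Difference of each factor (vertical axis) in 7 comparisons, as log2 difference with its 95% interval from limma (horizontal axis); a filled point has an adjusted p under 0.05. The filled point is Foxa1 in IPO against Sham, and the IRI intervals all include 0.

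Against sham, the conditioned groups stood higher than IRI did, with all 9 factors above 0 in each. The median difference was 0.40 for IPC, 0.45 for IPO and 0.34 for both, beside 0.01, 0.00 and 0.01 over all genes. Of all genes, 51.7%, 50.1% and 52.6% were above 0, and the shares among genes of like level are not given here. In IPC against sham 0 of 9 were called beside 6.58% of all genes (6 of 9 at an unadjusted p under 0.05, beside 23.9%), and in IPC+IPO against sham 0 of 9 beside 3.62% (5 of 9 unadjusted, beside 23.6%). In IPO against sham 5 of 9 had an unadjusted p under 0.05, beside 40.7% of all genes. These comparisons share the 8 sham rats. Spread in the model brought the medians to 0.21, 0.06 and 0.12, with 6 of 9 above 0 in each, and renewed quantile normalization to 0.13, 0.11 and 0.12, with 7, 7 and 5 above 0.

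Several factors crossed the threshold against sham when 1 array was left out. Without sham animal 43, whose spread was high, Cebpa, Cebpb, Foxa2 and Foxa3 were called in IPC (0.73, 0.41, 0.58 and 0.56) and Cebpa, Foxa3 and Hnf4a in IPO (0.62, 0.53 and 0.54). Without sham animal 48, Cebpa and Foxa2 were called in IPC (0.67 and 0.59) and Cebpa in IPO (0.56). Without IPC animal 17, the lowest of its group in 7 of the 9 factors, Cebpa, Cebpb and Onecut1 were called in IPC (0.76, 0.45 and 1.08) and Cebpa in IPO (0.54). Without IPC+IPO animal 38, the lowest of its group in 6 of the 9, Cebpa, Foxa1 and Foxa3 were called in IPC+IPO (0.59, 0.37 and 0.51), Cebpa and Foxa3 in IPO (0.54 and 0.44) and Cebpa in IPC (0.65). Without IPC animal 20 Foxa2 was called in IPC (0.61), without IPO animal 30 Foxa3 in IPO (0.56), and without IPO animal 25 or IRI animal 10 Cebpa in IPO (0.58 and 0.54). Cebpa was also called in IPC, at 0.65, without IPC+IPO animal 37 or IRI animal 7, 8 or 10. The share of all genes called in each of these fits is not given here, so these calls are not shown to be particular to the factors. Without both sham animals 43 and 48, 27.5% of all genes were called in IPC and 47.2% in IPO, beside 6.58% and 23.2% with all arrays. With both low-spread arrays left out, 3 factors were called in IPC (Cebpa, Cebpb and Foxa2), 4 in IPO (Cebpa, Foxa1, Foxa3 and Hnf4a) and 3 in IPC+IPO (Cebpa, Foxa1 and Foxa3), beside 12.1%, 35.3% and 22.5% of all genes. Without the 14 arrays of lowest spread, which leaves 2 sham rats, 0 were called in the 3 comparisons, beside 0.0483%, 0% and 0% of all genes. With limma's array weights, which give less weight to arrays that deviate from their group, 8 of 9 were called for IPC, 6 for IPO and 9 for both against sham, beside 48.6%, 67.2% and 62.1% of all genes (array weights also called Foxa1, Hnf4a, Nr5a2 and Prox1 in IPO against IRI, and Foxa1 and Nr5a2 for both against IRI, beside 42% and 30.9%).

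Between the conditioned groups the median difference of the 9 factors was -0.03 for IPO against IPC, -0.14 for IPC+IPO against IPC and -0.06 for IPC+IPO against IPO, and in each 0 of 9 were called, beside 0% of all genes. At an unadjusted p under 0.05 they numbered 0 of 9 in each, beside 4.06%, 1.62% and 3.32% of all genes. Onecut1 had the largest of these differences, 0.45 ± 0.32 lower in IPC+IPO than in IPC (95% interval from -1.10 to 0.20). The fit with spread gave medians of -0.15, -0.16 and 0.04 in these 3 comparisons, so the last one turned sign. The interaction of both interventions, (IPC+IPO minus IPO) minus (IPC minus IRI), was below 0 for all 9, with a median of -0.31 beside 0.03 over all genes, of which 53% were above 0. It was -0.91 ± 0.41 for Prox1 (p = 0.0292) and -0.58 ± 0.28 for Hnf4a (p = 0.0432), with adjusted p of 0.226 and 0.238, and 0 of 9 were called beside 0% of all genes (20.3% at an unadjusted p under 0.05). With spread held constant 8 of 9 were below 0, with a median of -0.10, and Prox1 and Hnf4a were at -0.48 ± 0.36 and -0.21 ± 0.21. The share of genes of like level with an interaction below 0 is not given here. The shared direction is therefore not shown to be particular to the factors.

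The order of the group means fell into a few patterns. Sham was the lowest group and IRI the next for Hnf4a, Cebpa, Cebpb, Foxa1, Foxa2, Foxa3 and Onecut1, whereas IRI was the lowest and sham the next for Nr5a2 and Prox1. IPC was the highest group for Cebpa, Cebpb, Foxa2, Foxa3 and Onecut1, and IPO for Hnf4a, Foxa1, Nr5a2 and Prox1. No 2 groups next to each other in these orders differed at an adjusted p under 0.05.

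**Figure D3:**
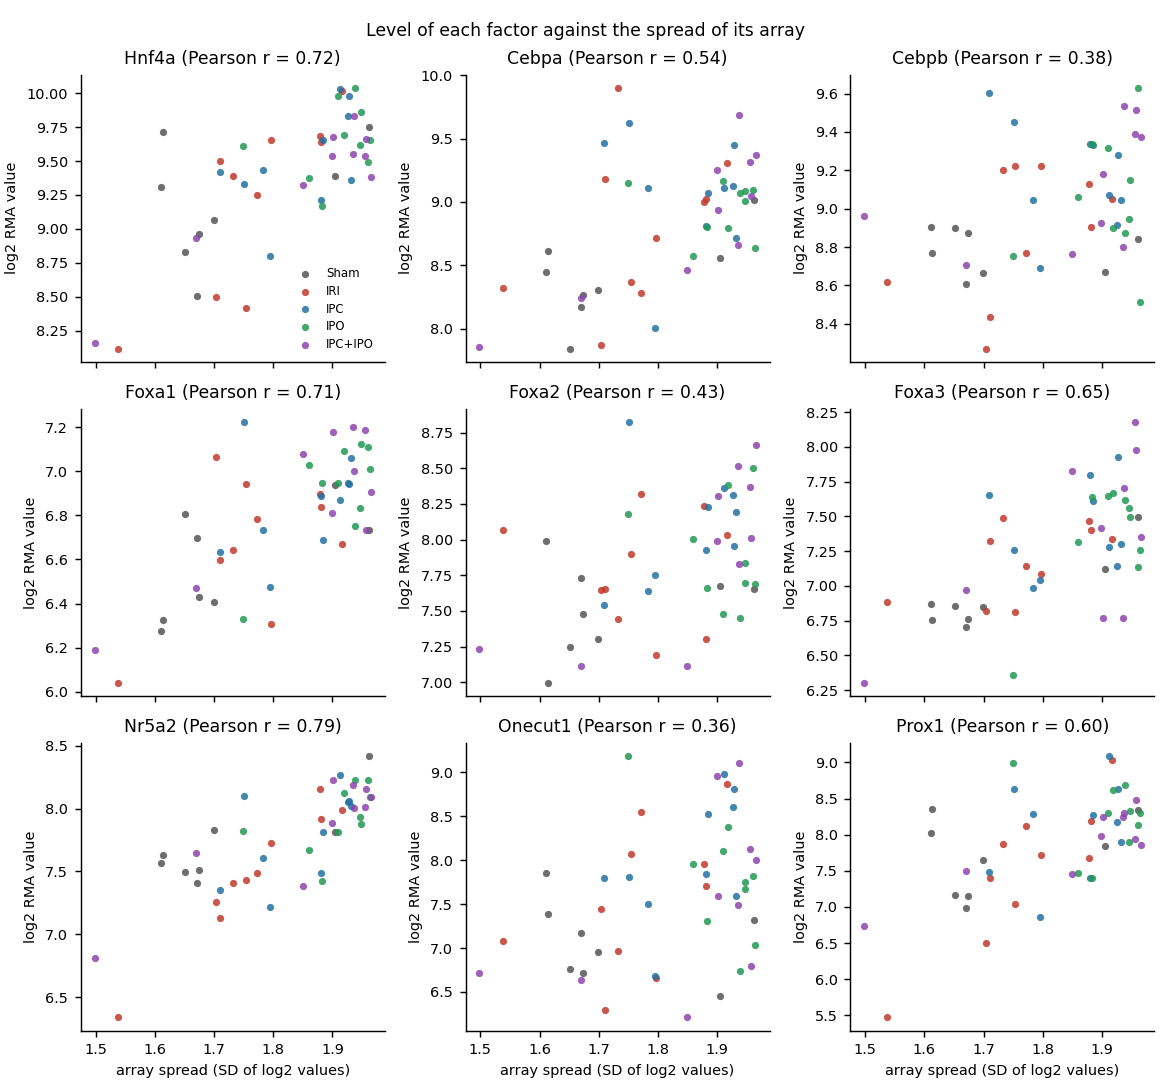
Log2 RMA value of each factor (vertical axis) against the spread of its array, the SD of its log2 values (horizontal axis), 1 point per rat, coloured by group, with Pearson r over 48 arrays in each title. The points climb most steadily for Nr5a2 (r = 0.79) and scatter most for Onecut1 (r = 0.36) and Cebpb (r = 0.38).

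The level of every factor was correlated with the spread of its array, as was that of most genes of like level. Over the 48 arrays Pearson r was 0.79 for Nr5a2, 0.72 for Hnf4a, 0.71 for Foxa1, 0.65 for Foxa3, 0.60 for Prox1, 0.54 for Cebpa, 0.43 for Foxa2, 0.38 for Cebpb and 0.36 for Onecut1, and Spearman's rho was 0.76, 0.64, 0.60, 0.58, 0.54, 0.49, 0.44, 0.38 and 0.32. The 9 relations had adjusted permutation p-values from 1.8e-05 to 0.0104 for r and up to 0.025 for rho, and 1e-05 is the smallest p that 100000 permutations can give. Arrays were permuted across the groups, so these p-values also take in differences between group means. With the 2 arrays of most extreme spread left out, r ran from 0.31 in Onecut1 to 0.71 in Nr5a2. Within groups the relation was steady for Nr5a2, from 0.51 in IPO to 0.98 in IRI, and for Foxa1, from 0.31 in IPC to 0.84 in IPC+IPO. Onecut1 ran from -0.71 in IPO to 0.57 in IPC, so its relation did not hold within each group. Cebpb was below 0 in sham and IPC (-0.17 and -0.35), Cebpa in IPC and IPO (-0.16 and -0.07), Foxa2 in IRI and IPO (-0.05 and -0.20) and Prox1 in IPO (-0.18). With group means subtracted from both, r over the 48 arrays ran from 0.25 in Cebpb and 0.27 in Onecut1 to 0.80 in Nr5a2. Over all 14506 genes 49.7% had r above 0 and 40.1% had an r at least as high as that of Onecut1, the lowest of the 9. Of the 4449 genes with a mean at or above that of Foxa1, the dimmest of the 9, these shares were 94.2% and 84.6%, with a median r of 0.68, so the relation is not particular to these factors. What sets the spread was not tested.

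**Figure D4:**
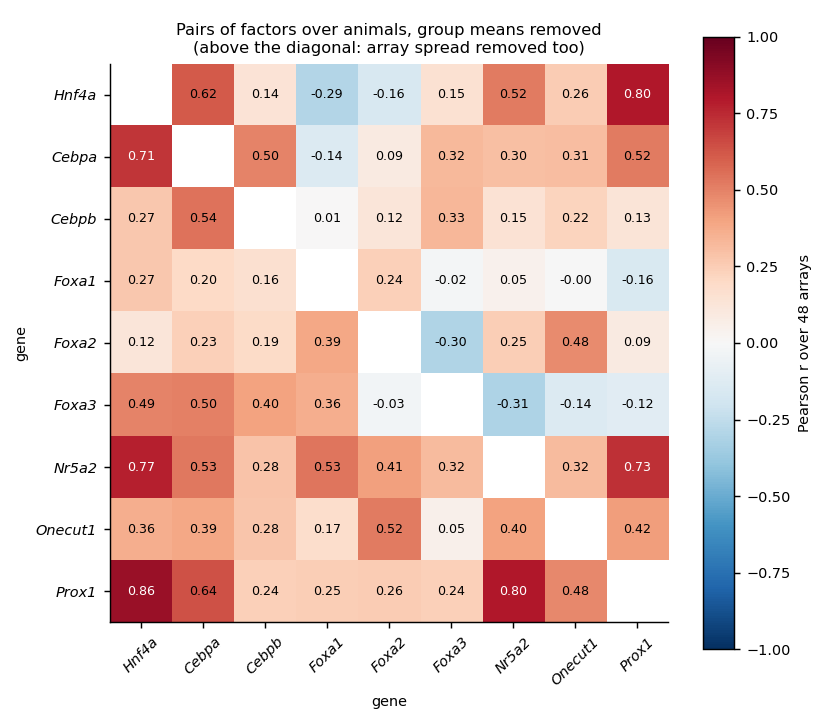
Pearson r between the 9 factors over 48 arrays with group means subtracted (below the diagonal) and with array spread removed as well (above it), on a colour scale from -1 to 1. The largest r is that of Hnf4a and Prox1, 0.86 below the diagonal and 0.80 above it.

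Hnf4a, Nr5a2 and Prox1 varied together from rat to rat. With group means subtracted, Pearson r over the 48 arrays was 0.86 between Hnf4a and Prox1, 0.80 between Nr5a2 and Prox1 and 0.77 between Hnf4a and Nr5a2 (Spearman's rho 0.80, 0.73 and 0.70, adjusted permutation p = 9e-05 for each). Without the 2 arrays where the first-named factor of the pair lay farthest from its median, r was 0.82, 0.72 and 0.66. Within the 5 groups it ran from 0.69 to 0.96, 0.61 to 0.94 and 0.57 to 0.89. With spread removed it was 0.80, 0.73 and 0.52. Cebpa followed Hnf4a (r = 0.71, rho = 0.67, and 0.62 with spread removed) and Prox1 (0.64, 0.58 and 0.52), with adjusted permutation p of 9e-05 and 0.000144 for r. Of the 36 pairs, 35 had r above 0 and 18 had an adjusted p under 0.05 for both r and rho, and the median r was 0.36. Over all pairs of the 4449 genes with a mean at or above that of Foxa1, 84.5% had r above 0 and the median was 0.42 (49.7% and 0.00 over pairs of all genes), so a positive r alone does not set these factors apart. The share of those pairs that would pass the permutation test is not given here. The 18 pairs are therefore not shown to be a trait of these factors. With spread removed as well, 26 of the 36 pairs were above 0 with a median of 0.15, beside 54.1% and 0.04 over the pairs of those 4449 genes.

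Among the 3 FOXA genes, Foxa1 and Foxa2 had r = 0.39 (rho = 0.41, adjusted permutation p = 0.0308 and 0.0169), which was 0.24 with spread removed. Foxa2 and Foxa3 had r = -0.03 (rho -0.09, adjusted permutation p = 0.879), and Foxa1 and Foxa3 had r = 0.36 but rho 0.15 (adjusted permutation p = 0.0426 and 0.419). With the other factors, Foxa1 had its highest r with Nr5a2 (0.53, rho = 0.36, adjusted permutation p = 0.00248 and 0.0368), and Foxa3 with Cebpa (0.50, rho = 0.49, 0.00202 and 0.00489) and Hnf4a (0.49, rho = 0.45, 0.0009 and 0.00497). These were 0.0457, 0.32 and 0.15 with spread removed. Foxa2 paired best with Onecut1 (r = 0.52, rho = 0.57, adjusted permutation p = 0.00272 and 0.00078), and this pair kept r = 0.48 with spread removed. Onecut1 and Prox1 had r = 0.48 (rho = 0.46, adjusted permutation p = 0.00306 and 0.00586). The C/EBP pair had r = 0.54 (rho = 0.49, adjusted permutation p = 0.00134 and 0.00497), but within groups it ran from -0.02 to 0.76.

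The genes most like each factor over the 48 arrays, with group means subtracted, were Akt2 for Hnf4a (r = 0.93), Usp24 for Nr5a2 (0.92), Atp2a2 for Prox1 (0.92), Vgll4 for Onecut1 (0.88), Igfals for Cebpa (0.87), Tbcc for Foxa3 (0.78), Fbxo7 for Foxa1 (0.75), Cish for Foxa2 (0.75) and Mid1ip1 for Cebpb (0.58). With spread removed the first was still Akt2 for Hnf4a (0.86), Vgll4 for Onecut1 (0.87), Cish for Foxa2 (0.72) and Tbcc for Foxa3 (0.64). It became Nedd4 for Nr5a2 (0.82), Hdlbp for Prox1 (0.91), Fem1a for Cebpa (0.84), Hspa14 for Foxa1 (0.56) and Slc35f1 for Cebpb (0.61). Cebpb had the weakest such likeness of the 9 before spread was removed. All of these values share the same arrays and their spread.

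Among relatives and partners of the C/EBP factors, Nfil3 and Dbp were called in IPO against IRI. Of 9 measured relatives and partners, Nfil3, a repressor of the PAR bZIP family's sites, rose in IPO against IRI (0.77 ± 0.24, 1.71-fold, limma adjusted p = 0.0242), and Dbp, a circadian PAR bZIP factor, fell by 1.69 ± 0.51 (adjusted p = 0.0222). The list's median there was -0.00 beside -0.04 over all genes, and 2 of 9 calls are near the 22.8% of all genes called, 12.4% higher and 10.4% lower. Against sham 5 of 9 rose in IPC (Trib1, Nfil3, Trib3, Ddit3 and Atf4), none fell, and the median was 0.60, beside 6.58% of all genes called. Trib1, which directs C/EBPα protein to degradation, rose there by 1.70 ± 0.33 (3.26-fold, adjusted p = 0.00207), and it stood at 1.38 in IPC+IPO against sham. Of the list, 4 rose and 1 fell in IPO against sham and 3 rose in IPC+IPO against sham, beside 23.2% and 3.62% of all genes called. In IRI against sham 0 of 9 were called, Trib1 standing at 0.65 ± 0.33 and Trib3 at 0.49 ± 0.17 (adjusted p = 0.444 and 0.201). Against sham Trib1 and Nfil3 were at 1.40 and 1.11 in IPC with spread in the model (adjusted p = 0.015 and 0.0106), while Trib3, Ddit3 and Atf4 were no longer called (adjusted p = 0.0668, 0.142 and 0.0819), and Nfil3 and Dbp against IRI in IPO had adjusted p of 0.464 and 0.292 in that model.

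Of the 13 partners and competitors of HNF4A, 2 rose and 1 fell in IPO against IRI, near the 22.8% of all genes called there. These were Nr2f2 (0.37 ± 0.13, adjusted p = 0.039), a nuclear receptor that shares HNF4A's sites, Smarcd2 (0.31 ± 0.12, adjusted p = 0.0478), a chromatin remodelling subunit, and Nr2f1 (-0.25 ± 0.08, adjusted p = 0.0254). The list's median was 0.30. Nr0b2, the repressor SHP that is induced by bile acids, stood at 0.99 ± 0.39 in IRI against sham (adjusted p = 0.281), and it rose in IPO against sham by 1.29 ± 0.39 (2.45-fold, adjusted p = 0.0188; 0.71 ± 0.41 with spread in the model, adjusted p = 0.567). No gene of the list was called in the other 3 main comparisons, and none in IPO against IRI with spread in the model. In IPO against sham 2 rose and 1 fell, beside 23.2% of all genes called. In IPC against sham 1 rose, beside 6.58%.

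Among 18 measured targets of HNF4A, 4 rose and 1 fell in IPO against IRI, beside 22.8% of all genes called, with a median of 0.17. Mttp, which loads lipid onto apolipoprotein B, rose by 0.70 ± 0.18 (1.63-fold, limma adjusted p = 0.0155), the liver pyruvate kinase gene Pklr by 0.85 ± 0.26 (1.81-fold, adjusted p = 0.0246) and the transferrin gene Tf by 0.25 ± 0.08 (adjusted p = 0.0257), while Apoa1 fell by 0.21. None was called in the other 3 main comparisons. In IPO against sham 8 rose and 2 fell, beside 23.2% of all genes called. In IPC against sham 3 rose, beside 6.58%, and in IPC+IPO against sham 0 were called, beside 3.62%. With spread in the model 0% of all genes were called in IPO against sham. In IRI against sham Mttp was at -0.59 ± 0.19 (adjusted p = 0.165) and Cyp7a1, the rate-limiting enzyme of bile acid synthesis, at -0.97 ± 0.38 (adjusted p = 0.281). With spread in the model Mttp in IRI against sham was at -0.71 ± 0.15 with an adjusted p of 0.00412, and 0 of the 18 were called in IPO against IRI.

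C/EBP and FOXA targets also had calls in IPO against IRI and in none of the other 3 main comparisons. Of 13 C/EBP targets 4 rose in IPO against IRI, beside 12.4% of all genes called higher, with a median of 0.26, among them the gluconeogenic G6pc1 (0.76 ± 0.20, 1.69-fold, adjusted p = 0.0155), the amino acid enzyme Tat (0.70 ± 0.20, adjusted p = 0.0212) and the acute-phase Serpina3n (0.45 ± 0.15, adjusted p = 0.0323). Of 13 FOXA targets 4 rose, beside the same 12.4%, with a median of 0.18, including the bile salt importer Slc10a1 (0.42 ± 0.12, 1.34-fold, adjusted p = 0.0203), and G6pc1 and Tat are on both lists. Igfbp1, a stress-induced secreted protein, stood at 0.82 ± 0.39 after IRI (against sham) and 0.99 ± 0.36 with IPC (against IRI) (adjusted p = 0.407 and 0.179), and it rose in IPC against sham by 1.804 ± 0.385 (3.49-fold, adjusted p = 0.00449), and by 1.57 ± 0.40 with spread in the model (adjusted p = 0.0263). Against sham Igfbp1 also stood at 1.571 in IPC+IPO and 0.893 in IPO in the main fit. None of either list was called in IPO against IRI with spread in the model. In IPO against sham 1 C/EBP target rose, and 4 FOXA targets rose and 1 fell, beside 23.2% of all genes called. In IPC against sham 1 C/EBP target and 2 FOXA targets rose, beside 6.58%. In IPC+IPO against sham 1 of each list rose, beside 3.62%.

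The target lists of NR5A2, ONECUT1 and PROX1 are short, and their calls in IPO against IRI also stand beside 22.8% of all genes. Of 10 NR5A2 targets, Slc10a1 rose and Apoa1 fell in IPO against IRI (median 0.15), and Plk3 and Cyp7a1, at 0.46 ± 0.17 and -0.97 ± 0.38 in IRI against sham, had adjusted p of 0.232 and 0.281. Of 7 ONECUT1 targets, G6pc1 and Tat rose in IPO against IRI (median 0.31). Pfkfb1, the liver isoform of the enzyme that makes fructose 2,6-bisphosphate, was at -0.82 ± 0.22 in IRI against sham (0.57-fold, adjusted p = 0.0784), and at -0.85 ± 0.21 with spread in the model (adjusted p = 0.0145). Of 8 PROX1 partners and targets, the histone demethylase gene Kdm1a and the corepressor gene Ncor1 rose (0.71 ± 0.20 and 0.61 ± 0.21, adjusted p = 0.018 and 0.036) and Esrra, an orphan receptor of mitochondrial genes, fell by 0.29 ± 0.08 (adjusted p = 0.0188) in IPO against IRI. None of the 3 lists had a call in the other 3 main comparisons, and none in IPO against IRI with spread in the model. In IPO against sham 3 NR5A2 targets rose and 2 fell, beside 23.2% of all genes called. There 1 ONECUT1 target rose, and 3 of the PROX1 list rose and 2 fell. In IPC against sham 2 NR5A2 targets rose and 1 ONECUT1 target fell, beside 6.58%. In IPC+IPO against sham 0 of the 3 lists were called, beside 3.62%.

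The other liver-enriched transcription factors, 19 measured of 23 listed, were called, among the 4 main comparisons, only in IPO against IRI, beside 22.8% of all genes. There 4 rose (Nr1h4, Foxo1, Gata4 and Gata6) and 2 fell (median 0.20). The bile acid receptor gene Nr1h4 rose by 0.65 ± 0.20 (1.57-fold, adjusted p = 0.0247), Foxo1 by 0.53 ± 0.17 (adjusted p = 0.0287), and Klf15, at -0.38 ± 0.13, and Esrra fell. Nr1i3, the xenobiotic receptor CAR, was at -0.59 ± 0.22 and the homeobox gene Hhex at 0.91 ± 0.38 in IRI against sham (adjusted p = 0.239 and 0.313). With spread in the model 0 of the 19 were called in IPO against IRI (Nr1h4 at 0.19 and Foxo1 at 0.17, adjusted p = 0.671 and 0.688), while in IRI against sham Nr1i3 fell by 0.68 ± 0.20 (adjusted p = 0.0343). In the main fit 5 of the 19 rose in IPO against sham, beside 23.2% of all genes called. In IPC against sham 1 rose and 1 fell, beside 6.58%, and in IPC+IPO against sham 1 rose, beside 3.62%.

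The markers of liver cell types were read beside the factors. In IPO against IRI, where 22.8% of all genes were called, 3 of 11 hepatocyte markers rose and 1 fell (median 0.25), 2 of 11 Kupffer cell markers rose (median 0.33), 2 of 13 stellate cell markers rose (median 0.24), 0 of 7 bile duct and 0 of 7 endothelial markers were called (medians -0.03 and 0.31), and 1 of 11 neutrophil markers and 1 of 8 erythroid markers fell (medians -0.13 and -0.25), with 0 of 9 lymphocyte markers called (median -0.14). In IRI against sham the stellate marker Pdgfra fell, the 1 marker called there. With spread in the model 7 markers were called in IRI against sham, beside 5.89% of all genes: the hepatocyte markers Hpd and Asgr1 and the erythroid Hba-a3 rose (0.24, 0.22 and 0.90), and the hepatocyte Cps1, the Kupffer cell Cd163 and the stellate Pdgfra and Col1a2 fell (-0.46, -0.63, -0.49 and -0.42). The mean level of the 11 Kupffer markers ranged from 6.74 to 8.06 in IRI and from 6.99 to 8.37 in IPO, and that of the 11 hepatocyte markers from 11.83 to 12.24 and from 12.11 to 12.30. The 7 bile duct markers ranged from 5.58 to 5.91 in IRI and from 5.53 to 6.18 in IPO. None of the markers was called in IPO against IRI with spread in the model, where 0.0138% of all genes were. In IPO against sham, where 23.2% of all genes were called, 5 hepatocyte markers rose and 1 fell. There 3 stellate markers rose and 1 fell, and 1 Kupffer and 1 neutrophil marker rose. In IPC against sham, beside 6.58%, 2 hepatocyte, 1 Kupffer and 1 stellate marker rose. In IPC+IPO against sham, beside 3.62%, 2 hepatocyte markers and 1 Kupffer marker rose. The part of cell makeup in the differences of the 9 factors was not tested.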

How the data were processed

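The authors deposited log2 values per probe set, made from 1 Affymetrix array per rat with RMA in Affymetrix Expression Console, per the submitters' processing notes, with no version given in the sources used here. RMA subtracts background, quantile-normalizes and summarizes probes. Its levels do not give the relative amounts of RNA of different genes. Where genes are grouped by mean level, as for those at or above Foxa1, array signal is meant. Of 29215 probe sets, 15310 had 1 gene symbol, 323 several and 13582 none, and the probe set of highest mean stood for each of 14506 genes. limma 3.58.1 (R 4.3.3) fitted the 5 groups together (43 residual degrees of freedom), with lmFit, eBayes and Benjamini-Hochberg adjustment over all genes at 0.05. The fit was tested on simulated data with independent noise for each gene, so that test did not include array spread shared by genes. Groups came from sample titles, and replicates are separate rats. Precision is limited by the number of arrays. Correlations used 100000 two-sided permutations with group means subtracted for pairs. Each list's named genes are at most the 3 of smallest p in a main comparison, those that set its range, and the few that passed, the latter chosen after their values were seen. The members and lists were chosen with earlier results of these data known. The lists share genes. Alternatives were array spread as a covariate, renewed quantile normalization, median centring, array weights, other variance, filter, probe set and sample choices, and leaving out arrays. The array's genome build is not given in the sources used here.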

Additional observations from a re-analysis of the deposited data

Results flagged for a closer look

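In 3 of the 45 sets of values (9 factors in 5 groups), 1 rat stood apart by Dixon's criterion, where chance gives about 1 in 20. IPO animal 30 had a Foxa1 value of 6.33, far below the other 9 IPO rats. The same animal had a Foxa3 value of 6.361, the lowest of its group. Sham animal 43 had an Nr5a2 value of 8.417, the highest of the 8 sham rats, and its array spread of 1.96 was also the highest among them.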

How the results depend on the processing

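In all 7 families of calls the count of factors past the threshold was 0, except for 1 (Foxa1 in IPO against sham) over the 6 comparisons that are not among the 4 main ones. That count was 0 with all probe sets tested, with array spread as a covariate, with renewed quantile normalization, with trended and robust variance and without the 14 arrays of lowest spread. In IPO against sham these settings called 19.9% of all probe sets and then 0%, 9.07%, 23.2% and 0% of all genes. The count was 2 without the dimmest genes, 10 with only the groups compared, 10 without the 2 arrays of lowest spread, 11 without sham animals 43 and 48 and 23 with array weights. The share of all genes called in IPO against sham moved too, from 23.2% to 30.9%, 37.6%, 35.3%, 47.2% and 67.2% in these 5 settings, and in IPC against sham from 6.58% to 10.9%, 5.41%, 12.1%, 27.5% and 48.6%. In IPC+IPO against sham it moved from 3.62% to 8.03%, 0.0827%, 22.5%, 28.5% and 62.1%. Centring arrays on their medians kept the count at 1 but with another gene: Foxa1 in IPO against sham was no longer called (adjusted p = 0.0581), and Cebpa in IPC against sham was. Array weights also gave 8 in the test over all groups, 4 in IPO against IRI and 2 in IPC+IPO against IRI. Without sham animals 43 and 48 it was 1 in IPO against IRI (Nr5a2). Both settings that leave out 2 arrays were chosen after seeing the data. Without the 2 arrays of lowest spread and without the 2 sham arrays, all genes called numbered 1518 and 4023 in IPO against IRI (3307 with all arrays), 130 and 1062 in IRI against sham (35), and 3509 and 5364 in the test over all groups (2082).

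Leaving out 1 array at a time gave 0 to 1 in the test over all groups, 0 to 1 in IPC+IPO against IRI, 0 to 3 in IPO against IRI, 0 to 8 in the other 6 comparisons and 0 in the rest. The shares of all genes called in these fits are not given here. Over those fits Cebpa in IPC+IPO against IRI ran from -0.0175 to 0.21, Hnf4a in IRI against sham from -0.0722 to 0.15, Onecut1 in IPC+IPO against IRI from -0.17 to 0.16 and Prox1 in IRI against sham from -0.36 to 0.0377 (the latter without IRI animal 7, and also 0.0377 without the 2 arrays of lowest spread).

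With array spread as a covariate these uncalled differences turned sign. In IPO against IRI Cebpa was -0.13, Foxa2 -0.0679, Foxa3 -0.0967 and Onecut1 -0.0193. In IPC+IPO against IRI Cebpa was -0.0838, Foxa3 -0.0345, Hnf4a -0.1043 and Onecut1 -0.16. Against sham, Hnf4a was -0.0997 after IRI, -0.0407 with IPC, -0.056 with IPO and -0.20 with both, Nr5a2 -0.27, -0.31 and -0.24 and Prox1 -0.0297, -0.0774 and -0.25 in the last 3.

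With renewed quantile normalization, IPO against IRI gave Cebpa -0.13, Cebpb -0.0881, Foxa2 -0.16, Foxa3 -0.065 and Onecut1 -0.0239. IPC+IPO against IRI gave Cebpa -0.0891, Foxa2 -0.0631, Foxa3 -0.0322, Hnf4a -0.0397 and Onecut1 -0.18. Against sham, Cebpb was -0.0599 after IRI, -0.15 with IPO and -0.0135 with both, Hnf4a -0.13 after IRI, -0.0099 with IPC and -0.16 with both, Nr5a2 -0.21 with IPC, -0.18 with IPO and -0.18 with both, and Prox1 -0.12 with both.

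Without the 14 arrays of lowest spread, Onecut1 was -0.33 in IPO and -0.18 in IPC+IPO against IRI. The sham group then held only 2 rats, animals 43 and 48, whose arrays had the highest spread among sham rats. Against these 2 sham rats, Cebpa was -0.0057, Foxa1 -0.0943, Foxa3 -0.0981 and Hnf4a -0.12 after IRI, Hnf4a -0.0554 with IPC and -0.0065 with both, Nr5a2 -0.27 with IPC, -0.18 with IPO and -0.12 with both, and Prox1 -0.0345 with both. With array weights, Nr5a2 was 0.0682 and Prox1 0.21 in IRI against sham, and Onecut1 -0.0723 in IPO against IRI. The cause was not tested.

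No paired analysis was possible because no animal number occurs in more than 1 group. The number of arrays, 8 to 10 a group, limits the precision.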
